A study of Arabidopsis thaliana with 9 samples.

Results

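BZIP61 (AT3G58120), BZIP34 (AT2G42380) and BZIP53 (AT3G62420) encode transcription factors of the basic leucine zipper (bZIP) family of Arabidopsis thaliana. They were taken as the probe sets annotated to these symbols with 1 gene each, and 3 of 3 genes were found, with 1 probe set apiece, among 13356 genes that had a probe set of their own. They were picked because their signals rose in shl-2 seedlings, so the difference between shl-2 and wild type is described below and not tested. All 3 signals were also higher on every ebs array than on any wild type array. BZIP53 and BZIP34 passed the test in ebs, but BZIP34 lost its call in 5 of 9 fits that left out an array. No difference between shl-2 and ebs passed for any of the 3 genes.

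Seedlings of 3 genotypes in the accession Landsberg erecta were compared: shl-2 (written shl-2-2 in the source descriptions), a mutant of SHL, ebs, a mutant of EBS, and wild type. Both mutants are described by the submitters as lacking transcript of the mutated gene. All plants were grown for 18 days on solid MS medium, with 8 h light and 16 h darkness per day and no further treatment, and RNA was taken from pools of complete plants. Each genotype had 3 independent biological samples, each on its own Affymetrix array, and the 9 arrays limit the precision of every value. In RNA from complete plants, fewer cells of a type and less RNA per cell cannot be told apart.

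A bZIP protein grips DNA with a basic region and pairs with a partner through the adjacent leucine zipper, so the set of partners that a cell makes affects which genes it can bind. The family is divided into lettered groups by sequence. BZIP34 and BZIP61 form group E, and BZIP34 is known for a role in pollen wall formation and lipid metabolism of pollen. BZIP53 belongs to the small proteins of group S, pairs with factors of group C, and is known as an activator of seed maturation genes and of amino acid breakdown when plants are short of energy. EBS and SHL are related chromatin proteins that read methylated histone H3 and hold back flowering.

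Median log2 signals of the arrays lay between 6.06 and 6.12 and lower quartiles between 3.79 and 3.93. SHL1, the annotated name of SHL, read 7.46, 6.91 and 6.52 in shl-2, 8.08, 7.82 and 7.81 in ebs, and 7.88, 8.02 and 7.88 in wild type. Its log2 difference was -0.96 for shl-2 minus wild type (SE 0.19, n = 3 each, limma adjusted p = 0.0182). That call ended without wild type array 2 or 3, without shl-2 array 2 (highest adjusted p = 0.0772), and when the compared genotypes alone were fitted (adjusted p = 0.0502). The position of the probes relative to the lesion was not examined, and no probe set was named for EBS.

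BZIP61 had log2 signals of 8.67, 8.42 and 9.25 in shl-2, 8.20, 8.37 and 8.20 in ebs, and 7.75, 7.38 and 7.49 in wild type. All 6 mutant arrays lay above the 3 wild type arrays, and the shl-2 arrays lay above the ebs arrays by as little as 0.05. Means were 8.78 ± 0.43 in shl-2, 8.26 ± 0.10 in ebs and 7.54 ± 0.19 in wild type (SD, n = 3 each). The log2 difference of 1.24 between shl-2 and wild type (SE 0.18) corresponds to 2.36-fold. Of the tested probe sets, 87 had a larger rise.

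BZIP34, the other group E gene, read 6.56, 6.67 and 6.97 in shl-2, 6.28, 6.66 and 6.38 in ebs, and 5.48, 5.57 and 5.95 in wild type. The mutant arrays again lay above all wild type arrays, while ebs array 2 reached the level of the shl-2 arrays. Its means were 6.73 ± 0.21 in shl-2, 6.44 ± 0.20 in ebs and 5.67 ± 0.25 in wild type (SD, n = 3 each). The log2 difference between shl-2 and wild type was 1.07 (SE 0.15), or 2.09-fold, and 121 probe sets rose more.

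BZIP53, the group S gene, read 10.07, 9.74 and 10.21 in shl-2, 9.91, 10.05 and 9.92 in ebs, and 9.27, 9.08 and 9.22 in wild type. Here the mutants were interleaved, with shl-2 array 2 the lowest of the 6, and both stood clear of wild type. The means of 10.01 ± 0.24 in shl-2 and 9.96 ± 0.08 in ebs were close together, against 9.19 ± 0.10 in wild type (SD, n = 3 each). Its log2 difference between shl-2 and wild type was 0.82 (SE 0.12), or 1.76-fold, with 230 probe sets above it.

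**Figure D1:**
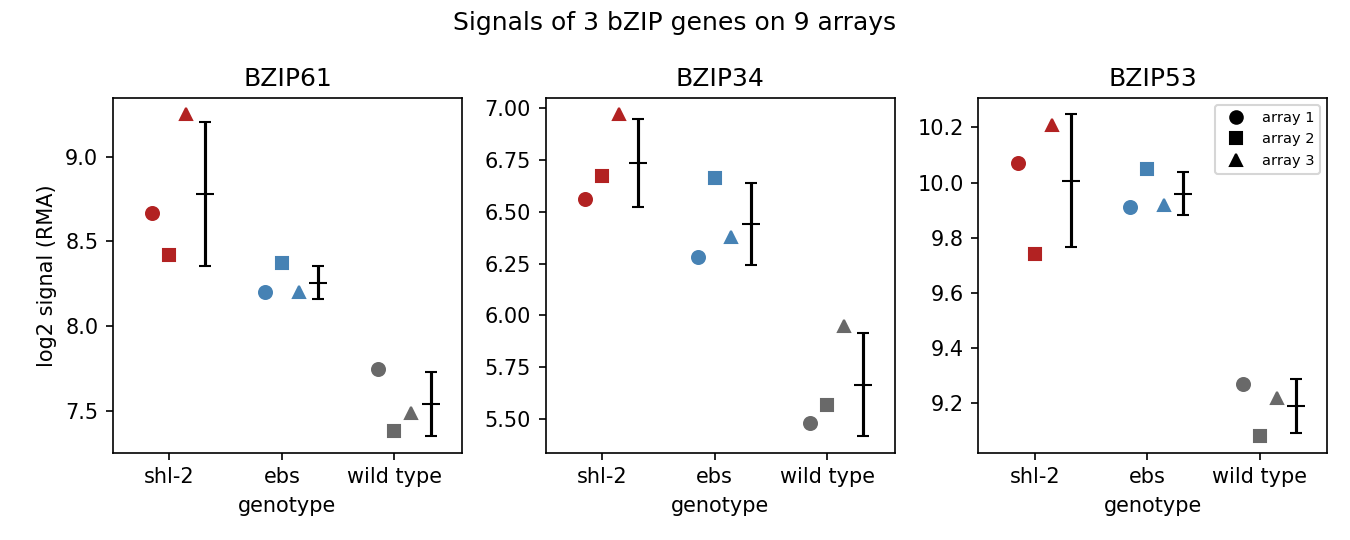
Log2 signals of BZIP61, BZIP34 and BZIP53 on the shl-2, ebs and wild type arrays, 1 panel per gene. Points are arrays, with the marker shape giving the array number, and the bar beside each group is its mean ± SD (n = 3). In each panel the 6 mutant points lie above the 3 wild type points, and the shl-2 and ebs points come closest together for BZIP53.

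All 3 genes passed the call threshold in shl-2, an adjusted p under 0.05 over all 22746 probe sets, and their shl-2 arrays did not overlap wild type. In that comparison 2.44% of all probe sets were called higher and 7.94% had shl-2 arrays wholly above wild type. Because the genes were chosen on this comparison, the counts say only how they were picked. The lowest of the 3 log2 differences was 0.82. The highest among the 24 other bZIP genes with a named probe set, which were not picked, was 0.25, for AT5G44080. That gap follows in part from the choice, which used the same values.

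The ebs arrays took no part in the choice of these genes, although the wild type arrays against which they are set did. BZIP53 rose in ebs by a log2 difference of 0.77 (SE 0.12, 95% interval 0.51 to 1.03), or 1.71-fold, with a limma adjusted p of 0.00794. BZIP34 rose by 0.77 as well (SE 0.15, 95% interval 0.43 to 1.11, adjusted p = 0.0265). BZIP61 had a difference of 0.72 (SE 0.18, 95% interval 0.31 to 1.13, adjusted p = 0.0707, unadjusted p = 0.00305) and did not pass. Thus 2 of the 3 were called higher, where 1.72% of all probe sets were, and all 3 had ebs arrays wholly above wild type, as did 7.34% of all probe sets.

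The BZIP53 call in ebs held in each of the 9 fits that left out an array (highest adjusted p = 0.0456). BZIP34 lost its call without wild type array 1 or 2 or any of the 3 ebs arrays, with differences of 0.66 to 0.85 and adjusted p from 0.0583 to 0.11. BZIP61 gained a call without shl-2 array 3 (adjusted p = 0.0118) or shl-2 array 2 (0.0497), arrays that enter the ebs comparison through the shared estimate of spread alone.

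The mutants were then set against each other, which tests whether the rises differed in size. The shl-2 arrays used here are those on which the genes were picked. BZIP61 was 0.52 higher in shl-2 than in ebs on the log2 scale (SE 0.18, 95% interval 0.11 to 0.93), with an unadjusted p of 0.0177 and a limma adjusted p of 0.315. It was higher in 3 of 3 shl-2 arrays than in any ebs array, a pattern that 6.85% of all probe sets showed. For BZIP34 the difference was 0.29 (95% interval -0.05 to 0.63, adjusted p = 0.553), with overlapping arrays.

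For BZIP53 the difference between the mutants was 0.05 (95% interval -0.21 to 0.31, adjusted p = 0.935). The direction of this small value turned to -0.055 without shl-2 array 3. In this comparison 0.769% of all probe sets were called, and none of the 3 genes was among them. The interval for BZIP61 still allows a rise in shl-2 that exceeds the ebs level by 0.93, whereas that for BZIP53 ends at 0.31.

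**Figure D2:**
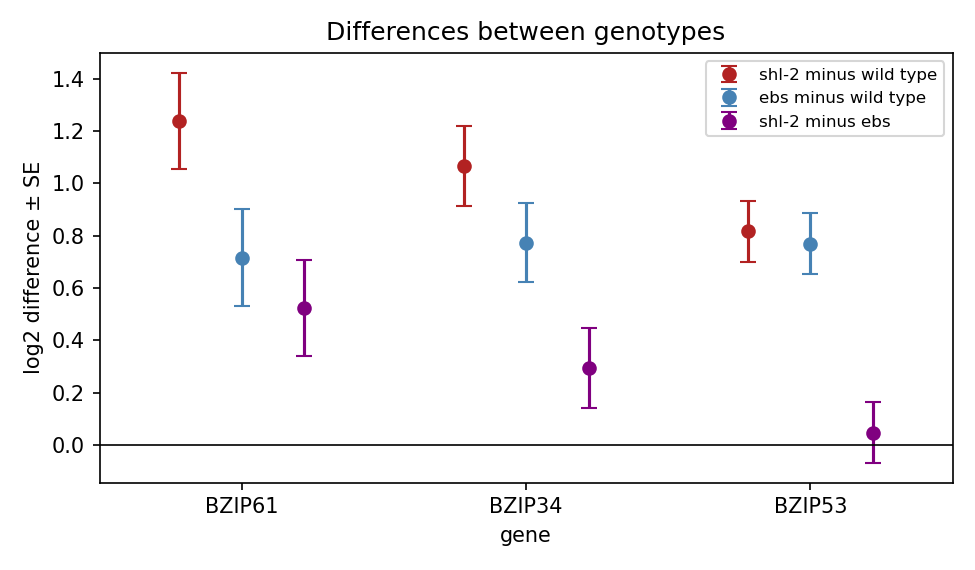
Log2 differences between genotypes for the 3 genes, as points with moderated standard errors from the fit to 9 arrays. For each gene the points run from shl-2 minus wild type, on which the genes were picked, through ebs minus wild type to shl-2 minus ebs. The ebs values are similar across the genes (0.72, 0.77 and 0.77), while the shl-2 values run down from 1.24 for BZIP61 to 0.82 for BZIP53.

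Within a genotype, the spread of the genes was not equal. The pooled within-genotype SD was 0.28 for BZIP61, larger than that of 95.0% of all probe sets, 0.22 for BZIP34 and 0.16 for BZIP53. Array 3 was the highest shl-2 array for all 3 genes, and array 2 was the highest ebs array for all 3. Without shl-2 array 3 the shl-2 minus wild type differences were 1.00 for BZIP61, 0.95 for BZIP34 and 0.72 for BZIP53. On that array SHL1 had its lowest signal, 6.52. The order of the other shl-2 arrays differed between genes. On array 2, with SHL1 at 6.91, BZIP61 and BZIP53 had their lowest shl-2 signals, 8.42 and 9.74. On array 1, with SHL1 at 7.46, BZIP34 had its lowest, 6.56. A link between SHL1 and the bZIP signals was not tested. In wild type the genes did not share a highest array, which was array 1 for BZIP61 and BZIP53 and array 3 for BZIP34.

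The rest of the family was examined next, with a list of 71 bZIP genes ordered by group, of which 27 had a named probe set. Among the 24 measured genes other than BZIP61, BZIP34 and BZIP53, limma called none higher in shl-2, where 2.44% of all probe sets were called higher. None was higher at an unadjusted p under 0.05, as 1713 of all 22746 probe sets were. The 3 genes had been set aside for their rise in shl-2. A lack of higher genes among the rest therefore follows in part from that choice. In the same comparison 1 of the 24 was called lower, where 2.99% of all probe sets were called lower. The log2 differences of the 24 in shl-2 ran from -0.94 to 0.25 with a median of -0.01, beside -0.03 over all probe sets. Of these differences 11 were above 0, 12 below, and BZIP17 was at 0. In ebs limma called none of the 24 (smallest adjusted p = 0.144), where 3.19% of all probe sets were called. Under an unadjusted p of 0.05 were 3 of them, beside 3848 of all 22746 probe sets. The ebs median was -0.01, beside -0.02 over all probe sets. Between shl-2 and ebs limma called none either (smallest adjusted p = 0.438), where 0.769% of all probe sets were called. An unadjusted p under 0.05 was reached by 1, beside 2430 of all 22746 probe sets. At these shares, counts of 0 or 1 called among 24 are near the background in each comparison.

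The gene called lower in shl-2 was HYH, the homologue of the light-signalling bZIP factor HY5. It read 6.06, 5.84 and 5.55 in shl-2, 6.48, 6.10 and 6.00 in ebs, and 6.91, 6.97 and 6.40 in wild type. The shl-2 arrays lay below all wild type arrays, and the ebs arrays overlapped both. The log2 difference was -0.94 for shl-2 minus wild type (SE 0.18, limma adjusted p = 0.0158) and -0.57 for ebs minus wild type (adjusted p = 0.144). The shl-2 call ended without wild type array 1 or 2 or shl-2 array 3 (highest adjusted p = 0.0724). The arrays of both mutants also lay wholly below wild type for bZIP19, which was not called. Its log2 differences were -0.28 in shl-2 (limma adjusted p = 0.237) and -0.30 in ebs (adjusted p = 0.24). Of all 22746 probe sets, 2860 lay wholly below wild type in shl-2 and 2858 in ebs.

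Of the partners of BZIP53 in group C, none of the 4 genes was measured under a single name. Of the other 4 genes of its own subgroup S1, 1 was measured, bZIP44. That gene read 8.02, 7.84 and 7.64 in shl-2, 7.76, 7.82 and 7.79 in ebs, and 7.67, 7.76 and 7.80 in wild type, so that all 3 genotypes overlapped. Its log2 differences were 0.09 in shl-2 (95% interval -0.12 to 0.30, limma adjusted p = 0.688) and 0.05 in ebs (adjusted p = 0.861). The 8 measured genes of group I, whose best known member VIP1 responds to osmotic changes, had shl-2 differences of -0.10 to 0.22. The highest was that of bZIP52, whose shl-2 arrays at 4.96, 4.96 and 5.01 lay above wild type arrays at 4.84, 4.87 and 4.55 without passing the test (adjusted p = 0.275).

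**Figure D3:**
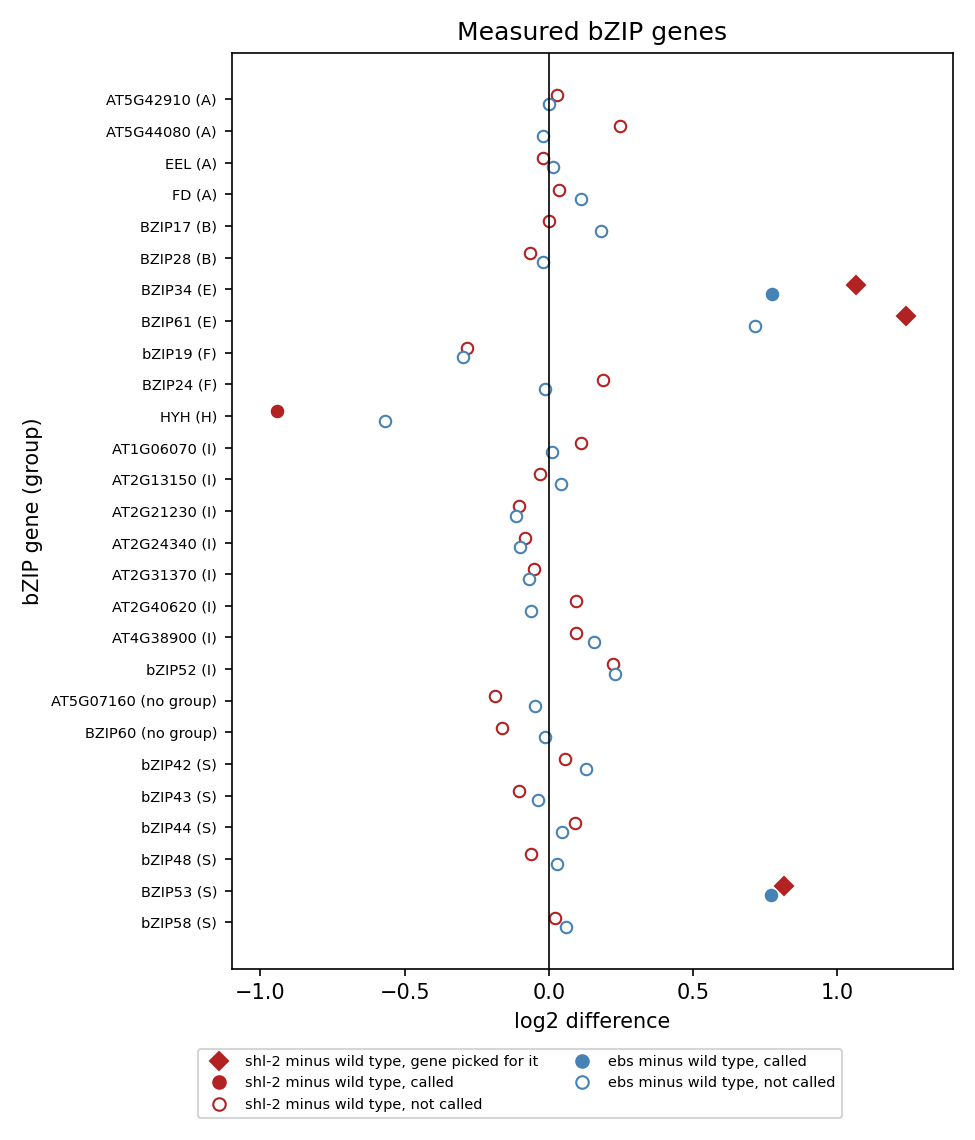
Log2 differences of the 27 measured bZIP genes, with the group in brackets, for shl-2 minus wild type and ebs minus wild type. Filled circles passed limma's test at an adjusted p under 0.05, open circles did not, and diamonds mark the 3 genes picked for their shl-2 value. BZIP61, BZIP34 and BZIP53 stand to the right in both comparisons, HYH stands to the left at -0.94 and -0.57, and the remaining genes lie between -0.30 and 0.25.

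Genes linked to low energy supply form a setting in which BZIP53 is known to act, and 2 of 18 listed genes had a named probe set. AKINBETA1, which encodes a regulatory subunit of the energy-sensing kinase SnRK1, read 9.19, 8.84 and 9.30 in shl-2, 8.94, 8.98 and 9.17 in ebs, and 8.29, 7.57 and 8.09 in wild type. Both mutants lay wholly above wild type, as did 7.94% of all probe sets in shl-2 and 7.34% in ebs. The log2 difference of AKINBETA1 was 1.13 in shl-2 (SE 0.18, limma adjusted p = 0.00568) and 1.05 in ebs (SE 0.18, adjusted p = 0.0137). The ebs call ended without ebs array 1 or 3 (highest adjusted p = 0.0617), and the shl-2 call held whichever array was left out.

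MCCA, which encodes a subunit of an enzyme of leucine breakdown, read 7.96, 7.61 and 7.94 in shl-2, 7.81, 7.45 and 8.00 in ebs, and 7.28, 6.66 and 7.19 in wild type. The mutant arrays lay wholly above wild type, as did 7.94% of all probe sets in shl-2 and 7.34% in ebs. MCCA rose in shl-2 by 0.79 (SE 0.19, limma adjusted p = 0.0362) and had a value of 0.71 in ebs (adjusted p = 0.0744). The shl-2 call ended in 5 of 9 fits that left out an array (without wild type array 2 or 3, ebs array 1, or shl-2 array 1 or 3, highest adjusted p = 0.12) and when the compared genotypes alone were fitted (0.0525). Of these 2 measured genes 2 were called higher in shl-2 and 1 in ebs, where 2.44% and 1.72% of all probe sets were. The other 16 listed genes were not measured under a single name. The list was chosen with earlier results of these data known, so these counts are a description of 2 genes. Neither gene passed the test between the mutants (log2 difference 0.08 for each). Whether these transcripts depend on BZIP53 was not tested.

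The seed maturation genes that BZIP53 is known to activate could not be examined, since none of the 16 listed was measured under a single name. The same held for the 4 leaf markers, so the seedling label was not checked by them. Of 12 flower, anther and pollen markers 2 were measured. SPL, a regulator of early anther development, read 3.30 to 3.50 in shl-2, 3.47 to 3.56 in ebs and 3.21 to 3.59 in wild type, and AMS, a regulator of the anther tapetum, read 3.24 to 3.32 in shl-2, 3.19 to 3.35 in ebs and 3.32 to 3.48 in wild type. Both stayed under the lowest array quartile of 3.79 in every sample, and neither passed the test in any comparison (smallest adjusted p = 0.51). EXPA7, an expansin gene of root hairs and 1 of 3 listed markers, averaged 4.40 in shl-2, 4.59 in ebs and 4.39 in wild type (adjusted p = 0.99 in shl-2 and 0.5 in ebs).

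The 3 measured genes on either side of each bZIP gene were taken from the gene order of the TAIR10.1 assembly of the Columbia accession, to see whether the rise extended along the chromosome. Of these 18 flanking genes 1 was called higher and 1 lower in shl-2, where 2.44% and 2.99% of all probe sets were, and their median log2 difference was 0.08. In ebs limma called none higher (1 at an unadjusted p under 0.05) and 1 lower, where 1.72% and 1.47% of all probe sets were called. At these shares, counts among 18 genes do not set the flanking genes apart from the rest. The measured genes around BZIP53 ran from -0.05 to 0.09 in shl-2, against 0.82 for BZIP53 itself, and from -0.16 to 0.01 in ebs. Up to 7 annotated genes lay between a measured gene and BZIP53, and those without a probe set of their own were not examined.

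Next to BZIP34, with no annotated gene between, AT2G42370 read 3.65, 3.76 and 3.62 in shl-2, 3.19, 3.21 and 3.33 in ebs, and 3.39, 3.34 and 3.30 in wild type. The shl-2 arrays lay above the others. Its log2 difference was 0.33 in shl-2 (SE 0.07, limma adjusted p = 0.0279) and -0.10 in ebs (adjusted p = 0.548), at signals under the lower quartile of every array. The shl-2 call ended without wild type array 2 or 3 or shl-2 array 1 or 2 (highest adjusted p = 0.0967) and when the compared genotypes alone were fitted (0.0594).

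Near BZIP61, with 4 annotated genes between, GIS moved the other way. GIS encodes a zinc finger protein that promotes trichome formation on inflorescence organs. It read 5.37, 5.25 and 5.27 in shl-2, 5.65, 5.35 and 5.65 in ebs, and 6.23, 6.63 and 6.44 in wild type. Both mutants lay wholly below wild type, as did 2860 of all 22746 probe sets in shl-2 and 2858 in ebs. GIS fell by 1.14 on the log2 scale in shl-2 (SE 0.12, limma adjusted p = 0.000613) and by 0.88 in ebs (SE 0.12, adjusted p = 0.00388), where 1.47% of all probe sets were called lower, and both calls held whichever array was left out. The other 5 genes flanking BZIP61 had shl-2 differences of 0.02 to 0.16.

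**Figure D4:**
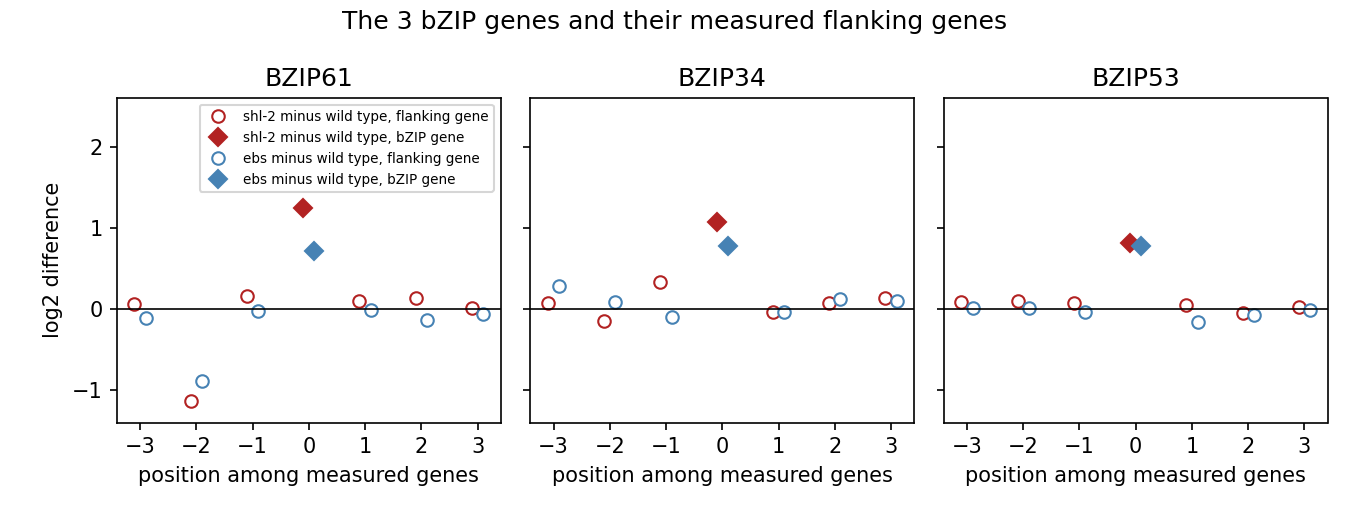
Log2 differences of each bZIP gene (diamond, at position 0) and of the 3 measured genes on either side (circles, in gene order) for shl-2 minus wild type and ebs minus wild type. GIS, at position -2 beside BZIP61, lies at -1.14 and -0.88, AT2G42370, at position -1 beside BZIP34, at 0.33 and -0.10, and the other flanking genes between -0.16 and 0.28.

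For each bZIP gene the 4 genes of most similar profile were found by the root mean square difference of log2 signals over the 9 arrays, each signal taken relative to the gene's own wild type mean. This measure uses the same arrays as the choice, so the values that follow are a description. Nearest to BZIP61 was ULT1, which encodes a chromatin protein that limits meristem size, at a root mean square difference of 0.14. ULT1 read 7.45, 7.27 and 7.91 in shl-2, 7.23, 7.14 and 7.24 in ebs, and 6.41, 6.41 and 6.38 in wild type, with array 3 again the highest of the shl-2 arrays. AT5G14450, AT5G44020 and AT5G44680 followed BZIP61 at 0.16 to 0.18.

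AT5G44680 came nearest to BZIP34 at 0.13 and was second for BZIP53 at 0.13, so it stood among the 4 nearest of each. It read 11.03, 10.89 and 11.44 in shl-2, 10.80, 10.99 and 10.79 in ebs, and 10.16, 9.99 and 10.23 in wild type, with the same highest shl-2 and ebs arrays as the bZIP genes. BZIP34 was further followed by AT3G52500, AT2G35470 and AT5G14450, at 0.16 to 0.18. BZIP53 had AT1G17970 nearest at 0.10, and AT1G11380 and AT3G06070 followed AT5G44680, both at 0.16. The bZIP genes were not each other's closest: among 13355 other genes BZIP34 ranked 16 for BZIP61, and BZIP61 ranked 16 for BZIP34, at 0.25. BZIP53 ranked 27 for BZIP61 at 0.28 and 12 for BZIP34 at 0.22, while for BZIP53 itself BZIP61 ranked 86 and BZIP34 ranked 43.

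**Figure D5:**
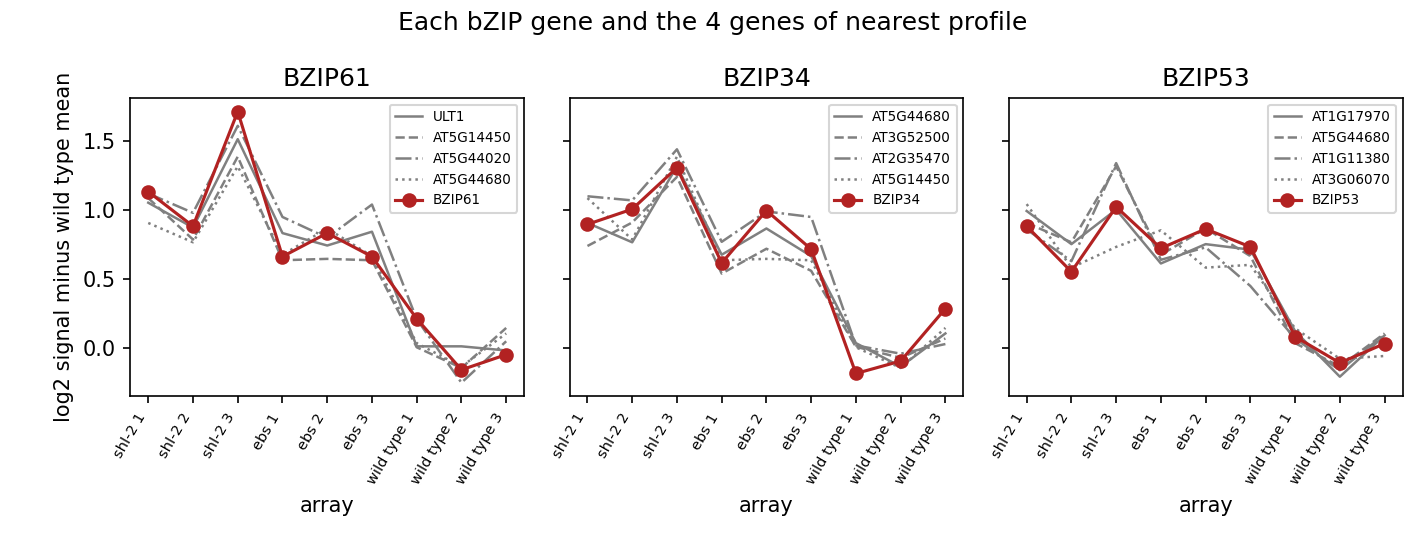
Log2 signal minus the gene's wild type mean on each array, for each bZIP gene (red circles) and the 4 genes of nearest profile (grey lines). Within each panel the mutant arrays lie above the wild type arrays, and shl-2 array 3 is the highest point of each bZIP gene.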

How the data were processed

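Each probe set has a deposited log2 signal; per the submitters' processing notes RMA and the affy package were used, on biotinylated cRNA of 500 ng total RNA, per the labels' protocols. RMA corrects background, equalises signal distributions and summarises probes; version and filters: not given in the sources used here. Of the probe sets, 64 AFFX controls were left out and 22746 tested without a filter: 13513 name 1 gene, 503 several and 8730 are unnamed here. Names came from the platform annotation, updated through Entrez identifiers to RefSeq (TAIR10.1; 13436 matched); the probe set of highest mean stood for a gene.

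With limma 3.58.1 (R 4.3.3), 3 genotype means were fitted to the 9 arrays (lmFit, contrasts.fit, eBayes). P-values were adjusted for each comparison by Benjamini-Hochberg across the 22746 probe sets; tests were two-sided and calls made at an adjusted p under 0.05. The fit was tested on simulated data. P-values rest on the spread between samples of the same genotype, pooled over the 3 genotypes and moderated across probe sets. Both mutants share the wild type arrays. The genes and lists were chosen with earlier results of these data known. Of 124 listed genes 32 were measured; bZIP groups follow general knowledge of the family. Named were the 3 genes, SHL, and measured bZIP genes of groups E, C and S1 or called in any comparison. Up to 4 called members of each other list and the 4 nearest profiles per gene were named too. Flanking genes and those singled out for range or for arrays that did not overlap were named after their values were seen. Same-numbered arrays of shl-2 and wild type deviated from their genotype means together (r = 0.41, 0.21 and 0.17 across probe sets). That possible pairing was taken from the data and not from the labels, and the fit without a block was kept.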

Additional observations from a re-analysis of the deposited data

Results flagged for a closer look

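AT2G42370, the gene beside BZIP34, was set apart because its changes in the mutants differed by the test of the difference itself. It was 0.43 higher in shl-2 than in ebs on the log2 scale (SE 0.07, limma adjusted p = 0.0275), in 3 of 3 arrays against 3. Of the 18 flanking genes 1 was called in this comparison, where 0.769% of all probe sets were. Of all probe sets, 6.85% had shl-2 arrays wholly above ebs. That call ended with the replicate number as a block, when the compared genotypes alone were fitted, and without wild type array 2, shl-2 array 1 or 2 or any ebs array (highest adjusted p = 0.141). Its signals lay under the lower quartile of every array.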

How the results depend on the processing

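The shl-2 minus wild type differences of the 3 genes kept their direction and moved by less than the within-genotype SD in all 16 alternatives, with leave-one-out ranges of 1.00 to 1.42 (BZIP61), 0.95 to 1.21 (BZIP34) and 0.72 to 0.95 (BZIP53). In ebs, BZIP53 stayed past the threshold in all 16 (0.72 to 0.81 leaving out arrays) and BZIP34 in the 7 that left out no array, with leave-one-out values of 0.66 to 0.92. BZIP61 in ebs also passed with array weights (0.72, adjusted p = 0.0416) and with the compared genotypes alone (0.72, 0.0213), with leave-one-out values of 0.64 to 0.82. Between the mutants no gene passed in any alternative; BZIP53 turned to -0.0048 with array weights, and leave-one-out values ran from -0.055 to 0.18. Same-numbered arrays did not all deviate together in ebs and wild type (r = 0.27, 0.46 and -0.11). Nor did they in shl-2 and ebs (0.23, 0.16 and -0.29). Among the ebs arrays, wild type array 1 and shl-2 array 1 each correlated best with ebs array 3 (0.46 and 0.41). Wild type array 2 had r = 0.15 with shl-2 array 3, near the 0.17 of the shl-2 and wild type arrays numbered 3. A pairing by number was therefore seen in shl-2 and wild type alone, and is uncertain there. With the replicate number as a block (replicate block), 1402, 898 and 248 probe sets were called in shl-2, in ebs and between the mutants, the ebs values stayed at 0.72, 0.77 and 0.77 (adjusted p = 0.0685 for BZIP61, 0.0115 for BZIP34 and 0.00884 for BZIP53), and 1 other bZIP gene was called in ebs, HYH (adjusted p = 0.0191), against 0. The block also gave a call to MCCA in ebs (0.00416) and to SHL1 between the mutants (0.0343), ended that of AT2G42370 between the mutants (0.0512), and changed no other call of a named gene. Other bZIP genes called in shl-2 numbered 0 to 1 when arrays were left out. Of all probe sets, 677 to 1229 were called in shl-2, 264 to 838 in ebs and 64 to 190 between the mutants when arrays were left out, against 1235, 726 and 175; array weights gave 1129 in ebs and 364 between the mutants, and the compared genotypes alone 112 between the mutants. Scanner files were not used here, so background correction and probe-level normalization were not varied.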
